A study of Mus musculus with 9 samples.

Results

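Expression of 9 primitive endoderm genes was followed in E14 mouse embryonic stem cells (ESCs) after knockdown of Dppa2 or Dppa4. The genes were Gata4, Gata6, Sox17, Sox7, Foxa2, Pdgfra, Dab2, Cubn, and Amn, chosen by name as transcription factors and receptors of the primitive endoderm. Earlier results of these data were known when they were chosen. They make up 9 of the 25965 genes in the deposited expression table. E14 ESCs of the 129/Ola background were cultured without feeders in serum and LIF and received control siRNA, Dppa2 siRNA, or Dppa4 siRNA, with a second transfection after 48 h and collection at 96 h (day 4). RNA-seq of polyadenylated RNA gave 3 libraries per siRNA, named replicates A, B, and C, for 9 libraries in all. All groups therefore shared the cell line, the medium, and the transfections, and differed in the siRNA target. The siRNAs lower their targets without removing them, in 1 cell line, and the sources used here do not say whether the replicates came from separate cultures, so p-values measure only the spread between these libraries.

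The primitive endoderm is the extraembryonic layer that forms next to the epiblast in the blastocyst and later gives the visceral and parietal endoderm of the yolk sacs. GATA6 and GATA4, zinc finger transcription factors, and SOX17 and SOX7, of the SOX F family, are known as its regulators, downstream from FGF signaling through ERK. PDGFRA, a receptor tyrosine kinase for PDGF ligands, is one of its early surface markers. DAB2, a clathrin adaptor, and the cubilin and amnionless proteins, which form an endocytic receptor, belong to its absorptive machinery. FOXA2 is a forkhead factor shared by visceral endoderm, definitive endoderm, and node.

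The knockdowns were first checked on their targets. Dppa2 mRNA was 91.02% ± 1.542 (SD, n = 3) lower than the control mean in Dppa2 siRNA libraries, and Dppa4 mRNA was 47.61% ± 1.215 (SD, n = 3) lower in Dppa4 siRNA libraries. The deposited values are on a log2 scale and not corrected for gene length, and an expression of log2 0 corresponded to 18 to 58 inferred reads per library. The cells carried the transcripts that define ESCs. All 15 genes of a naive pluripotency list were above the filter on low values, with Pou5f1, the core pluripotency factor also called Oct4, at a mean log2 value of 10.27 over the 9 libraries. Fbxo15, an F-box gene of ESCs, was the only gene of that list to be called, and fell by 0.91 with Dppa2 siRNA and by 1.12 with Dppa4 siRNA on the log2 scale (limma, adjusted p = 0.0017 and 0.000544).

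The 9 genes are protein-coding and lie apart from each other in the genome (GRCm38, positions as deposited). Gata4 spans chr14:63198922-63271692 on the minus strand and Sox7 lies further along at chr14:63943674-63950732 on the plus strand. Gata6 is at chr18:11052510-11085635, Sox17 at chr1:4490928-4496413, Foxa2 at chr2:148042877-148046969, Pdgfra at chr5:75152291-75198204, Dab2 at chr15:6299788-6440712, Cubn at chr2:13276338-13491924, and Amn at chr12:111271111-111276426. Values were taken per gene over merged transcripts, so they do not separate exons, UTRs, or isoforms. By shared sequence, reads of one member could hardly be taken for another gene. At most 0.15% of the 50-base stretches of a member's transcripts (Sox7) occurred in transcripts of other genes. The transcript ID deposited with Cubn belongs to Gm13270, and whether this touches the Cubn values was not tested. The microRNA gene Mir7025 overlaps Pdgfra on the same strand.

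RefSeq promoter windows of 300 bases (GRCm38.p6, from 250 bases before to 50 bases after a transcript start) were at hand for Amn, Cubn, Dab2, Foxa2, and Pdgfra. Those of Gata4, Gata6, Sox17, and Sox7 were not used here. Because several regulators in the set are GATA factors, the windows were searched on both strands for the GATA motif letters AGATAA or TGATAA. One Dab2 window, chr15:6299539-6299838 on the plus strand, held 2 matches, and is shown with the matched letters in capitals (the second on the opposite strand).

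Dab2 promoter window: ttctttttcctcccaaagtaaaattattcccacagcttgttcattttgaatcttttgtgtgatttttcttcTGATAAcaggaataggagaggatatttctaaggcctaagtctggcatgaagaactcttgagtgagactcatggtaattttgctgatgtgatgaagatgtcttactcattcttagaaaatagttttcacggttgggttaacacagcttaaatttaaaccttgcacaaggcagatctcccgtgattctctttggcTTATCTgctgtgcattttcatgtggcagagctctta

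The matches begin 179 bases before and 15 bases after the start. One of the 3 Foxa2 windows held 1 match, and the windows of Amn, Cubn, and Pdgfra and the other Dab2 window held none. Of all 32851 windows, 18.6% held these letters. The SOX motif ACAAT (in 31.0% of all windows) and the FOX motif TGTTTAC (in 3.65%) were in none of the member windows. A match is a description of letters, not of a bound site.

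The comparison of each knockdown with control siRNA asked which primitive endoderm genes differ when Dppa2 or Dppa4 is lowered. Gata6 rose 2.72-fold and Sox17 rose 2.29-fold with Dppa4 siRNA, and these were the members called at an adjusted p below 0.05 (limma across the 14601 genes above the filter, Benjamini–Hochberg). Against these 2 of 9 members, 1.10% of all tested genes were called higher with Dppa4 siRNA. With Dppa2 siRNA, 0 of 9 members were called, against 1.16% of tested genes called higher. At an unadjusted p below 0.05, 5 members were higher with Dppa4 siRNA (9.83% of tested genes) and 3 with Dppa2 siRNA (8.61%). A stricter rule, modeled on that of the study with limma in place of its count test, also required the intensity difference filter, a test of a difference against genes of like level. It called 0 of 9 members in either knockdown (0.370% of tested genes were called higher with Dppa4 siRNA and 0.377% with Dppa2 siRNA). More RNA per cell and more expressing cells cannot be told apart in these bulk libraries.

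All 9 members passed the filter on low values. The fitted difference was above 0 for 8 of 9 members in each knockdown, Amn being lower, beside 55.4% of tested genes with Dppa4 siRNA and 54.1% with Dppa2 siRNA. The median log2 difference of the members was 1.08 with Dppa4 siRNA and 0.42 with Dppa2 siRNA, against medians of 0.034 and 0.021 over all tested genes. All 3 Dppa4 siRNA libraries were above all 3 control libraries for 6 members (13.7% of tested genes). For 2 members, Gata6 and Sox7, the same held of the Dppa2 siRNA libraries (9.57%). Both knockdowns were compared with the same 3 control libraries, so their values are not independent of each other. Because the 9 genes were chosen with earlier results known, the shares over tested genes describe the set and do not test it.

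**Figure D1:**
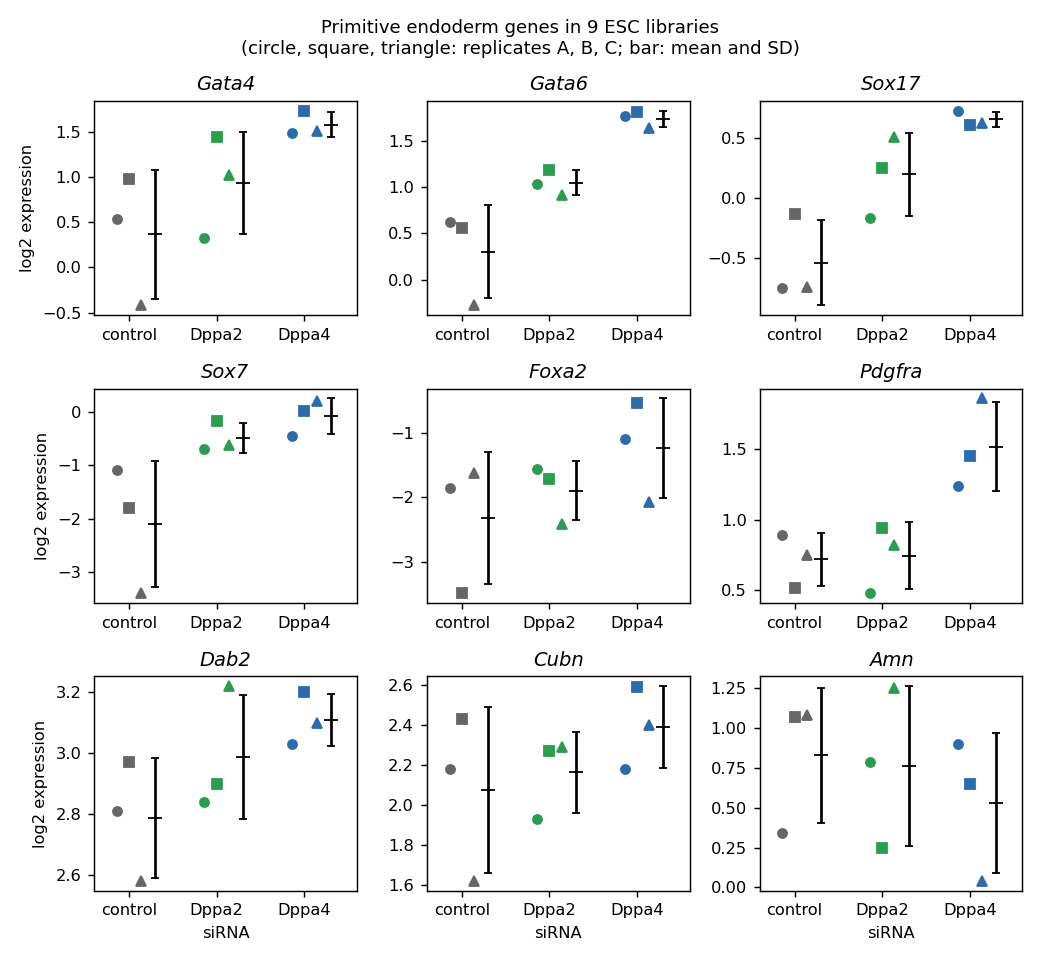
Deposited log2 expression (vertical axes, which differ between panels) of the 9 genes in each library by siRNA, with circles, squares, and triangles for replicates A, B, and C and bars for the mean and SD (n = 3). The Dppa4 siRNA libraries of Gata6 lie between 1.64 and 1.81, above all others, while for Amn the groups overlap.

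Gata6, the GATA factor that acts earliest in the lineage, had log2 values of 0.62, 0.56, and -0.28 in control replicates A, B, and C, of 1.03, 1.19, and 0.92 with Dppa2 siRNA, and of 1.77, 1.81, and 1.64 with Dppa4 siRNA. The 3 groups did not overlap and were in that order. The log2 difference from control was 1.44 with Dppa4 siRNA (SE 0.24, 95% interval 0.90 to 1.99, adjusted p = 0.0132, limma). With Dppa2 siRNA it was 0.75 (95% interval 0.20 to 1.29, adjusted p = 0.159), which did not pass. The inferred reads were 51, 84, and 22 in control and 117, 124, and 78 in Dppa4 siRNA replicates A, B, and C. Without Dppa4 siRNA replicate A or B the adjusted p became 0.0666 or 0.0762.

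Gata4, which is expressed along with Gata6 in committed primitive endoderm, had log2 values of 0.54, 0.98, and -0.42 in control libraries, 0.33, 1.45, and 1.02 with Dppa2 siRNA, and 1.49, 1.74, and 1.51 with Dppa4 siRNA. Dppa4 siRNA libraries were above all others, whereas Dppa2 siRNA and control libraries overlapped. The spread was wider than for Gata6 in both of the latter groups (SD 0.714 in control and 0.565 with Dppa2 siRNA, against 0.140 with Dppa4 siRNA). The log2 difference of Gata4 was 1.22 with Dppa4 siRNA (SE 0.38, adjusted p = 0.128) and 0.57 with Dppa2 siRNA (SE 0.38, adjusted p = 0.580), and neither was called (limma).

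Sox17, the SOX F factor of primitive and definitive endoderm, had log2 values of -0.75, -0.13, and -0.74 in control, -0.17, 0.25, and 0.51 with Dppa2 siRNA, and 0.73, 0.61, and 0.63 with Dppa4 siRNA. The Dppa4 siRNA libraries were again above the other 6 and close together, and Dppa2 siRNA replicate A fell within the control range. Its log2 difference was 1.20 with Dppa4 siRNA (SE 0.25, 95% interval 0.63 to 1.76, adjusted p = 0.0348, limma) and 0.74 with Dppa2 siRNA (SE 0.25, adjusted p = 0.176). The Sox17 call was lost when any of the Dppa4 siRNA replicates (adjusted p = 0.143, 0.136, and 0.106 without A, B, and C), control replicate A (0.0967), or control replicate C (0.0703) was left out.

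Sox7, the SOX F relative that is also expressed in parietal endoderm, was at log2 values of -1.09, -1.80, and -3.40 in control, -0.69, -0.17, and -0.62 with Dppa2 siRNA, and -0.45, 0.01, and 0.20 with Dppa4 siRNA. Every knockdown library was above every control library. These values rest on few reads, from 3 in control replicate C (exact 95% Poisson interval 0.62 to 8.77, counting error only) to 31 in Dppa4 siRNA replicate B. Sox7 had the largest fitted log2 differences of the set, 2.02 with Dppa4 siRNA (SE 0.53, adjusted p = 0.0788) and 1.60 with Dppa2 siRNA (SE 0.53, adjusted p = 0.166), and neither was called (limma). Without control replicate C they were 1.37 and 0.95.

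Foxa2 was the member with the lowest read numbers, 3 to 21 per library. Its log2 values were -1.85, -3.49, and -1.62 in control, -1.56, -1.72, and -2.42 with Dppa2 siRNA, and -1.10, -0.54, and -2.07 with Dppa4 siRNA. The groups overlapped, and the log2 differences of 1.08 (95% interval -0.24 to 2.41) with Dppa4 siRNA and 0.42 (95% interval -0.91 to 1.74) with Dppa2 siRNA were not called. Both intervals include 0 and are the widest of the 9 genes.

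Pdgfra, the receptor of the set, had log2 values of 0.89, 0.52, and 0.75 in control, 0.48, 0.94, and 0.82 with Dppa2 siRNA, and 1.24, 1.45, and 1.86 with Dppa4 siRNA. Control and Dppa2 siRNA libraries overlapped, and all Dppa4 siRNA libraries were above both. The log2 difference was 0.80 with Dppa4 siRNA (SE 0.21, 95% interval 0.32 to 1.28, adjusted p = 0.0841) and 0.02 with Dppa2 siRNA (95% interval -0.46 to 0.51, adjusted p = 0.989, limma). Neither was called.

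With Dppa4 siRNA the endocytic genes had the smallest fitted differences of the 9. Dab2, the adaptor that links receptors to clathrin, was at log2 values of 2.81, 2.97, and 2.58 in control, 2.84, 2.90, and 3.22 with Dppa2 siRNA, and 3.03, 3.20, and 3.10 with Dppa4 siRNA. Dppa4 siRNA libraries of Dab2 were above the controls, by a log2 difference of 0.32 (95% interval -0.01 to 0.66, adjusted p = 0.295, limma). Cubn, which encodes cubilin, had log2 values of 2.18, 2.43, and 1.62 in control, 1.93, 2.27, and 2.29 with Dppa2 siRNA, and 2.18, 2.59, and 2.40 with Dppa4 siRNA. These groups overlapped, with a log2 difference of 0.31 (95% interval -0.18 to 0.81) with Dppa4 siRNA and of 0.09 (95% interval -0.41 to 0.59) with Dppa2 siRNA. Amn, which encodes the membrane anchor of cubilin, had log2 values of 0.34, 1.07, and 1.08 in control, 0.79, 0.25, and 1.25 with Dppa2 siRNA, and 0.90, 0.65, and 0.04 with Dppa4 siRNA. Its groups overlapped, with log2 differences of -0.30 (95% interval -1.06 to 0.46) with Dppa4 siRNA and -0.06 (95% interval -0.82 to 0.69) with Dppa2 siRNA.

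**Figure D2:**
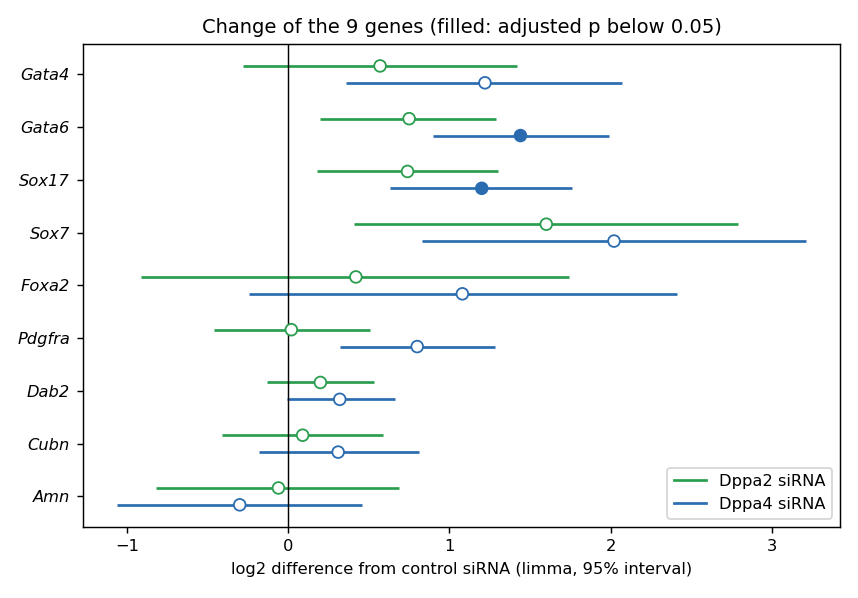
Log2 difference from control siRNA (horizontal axis) with 95% intervals from limma for the 9 genes with Dppa2 siRNA (green) and Dppa4 siRNA (blue). The filled points, Gata6 at 1.44 and Sox17 at 1.20 with Dppa4 siRNA, had an adjusted p below 0.05.

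Levels of the 9 genes were then ordered per kilobase of exon (log2 value less log2 of the exon length in kb). In control libraries Amn (-0.05) and Dab2 (-0.09) were highest, followed by Gata4 (-1.60), Cubn (-1.82), Gata6 (-2.40), Pdgfra (-2.61), Sox17 (-2.80), Foxa2 (-3.56), and Sox7 (-3.82). Only the step from Dab2 to Gata4 separated neighbors whose 3 control libraries did not overlap. With Dppa4 siRNA the order began with Dab2 (0.23), Amn (-0.35), Gata4 (-0.38), Gata6 (-0.96), and Cubn (-1.51), and the libraries did not overlap between Dab2 and Amn, between Gata4 and Gata6, or between Gata6 and Cubn. Thus Gata6 was below Cubn per kilobase in control libraries, with overlap, and above it in Dppa4 siRNA libraries. Summed on the linear scale, the 9 genes came to 15.43 to 21.48 in control, 19.24 to 24.53 in Dppa2 siRNA, and 25.99 to 29.56 in Dppa4 siRNA libraries.

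The members are weakly expressed, and low values moved with the treatment across all genes. Compared with a scale proportional to inferred reads, the deposited log2 value of a gene with 20 reads was offset by -0.194 to -0.00653 in control libraries and by 0.236 to 0.312 in knockdown libraries. The median log2 difference of genes with a mean log2 value of 0 to 1 was 0.157 with Dppa4 siRNA and 0.124 with Dppa2 siRNA, and at 3 to 4 it was 0.0288 and 0.0167. Among the 5465 genes with a mean log2 value of -2 to 3, the range of the members, 1.98% were called higher with Dppa4 siRNA and 2.25% with Dppa2 siRNA. In the same range 15.0% and 15.1% were higher at an unadjusted p below 0.05, 18.9% and 15.4% had all knockdown libraries above all control libraries, and 58.2% and 57.5% had a fitted difference above 0. Low values were then set by the inferred reads instead, with a fraction of a read added to each, which raises the lowest values most. With this setting Gata6 kept its call with Dppa4 siRNA at a log2 difference of 1.33 (adjusted p = 0.0164, limma), whereas Sox17, at 0.95, lost it (adjusted p = 0.0822). On that scale the differences with Dppa4 siRNA were 1.5 for Sox7, 1.08 for Gata4, 0.68 for Pdgfra, and 0.54 for Foxa2, and those with Dppa2 siRNA were 0.54 for Gata6, 1.05 for Sox7, 0.42 for Sox17, -0.19 for Foxa2, and -0.21 for Pdgfra.

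**Figure D3:**
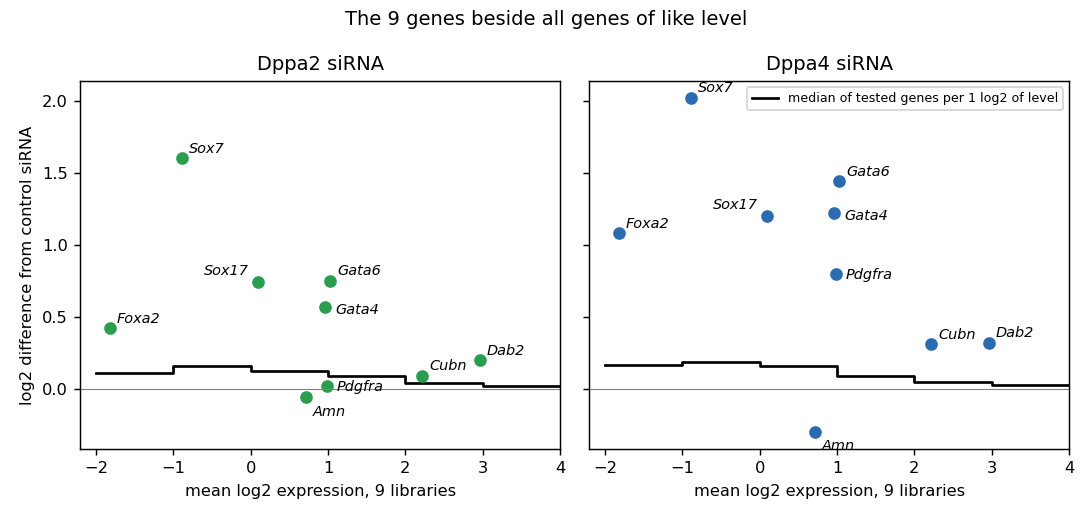
Log2 difference from control siRNA (vertical axis) against mean log2 expression over the 9 libraries (horizontal axis) for the 9 genes (points) and the median of all tested genes in steps of 1 on the log2 scale (line). The line lies above 0 at low levels, at 0.157 for levels of 0 to 1 with Dppa4 siRNA. Gata6, Gata4, Sox17, Sox7, Foxa2, Dab2, and Cubn lie above it in both knockdowns, Pdgfra only with Dppa4 siRNA, and Amn in neither.

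Control replicate C was the lowest of the controls for 5 of 9 members, Gata4, Gata6, Sox7, Dab2, and Cubn. Without it the log2 difference with Dppa4 siRNA was 1.15 for Gata6 (adjusted p = 0.00834, limma), 0.82 for Gata4, and 0.08 for Cubn. With Dppa2 siRNA it was 0.46 for Gata6 and 0.18 for Gata4.

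**Figure D4:**
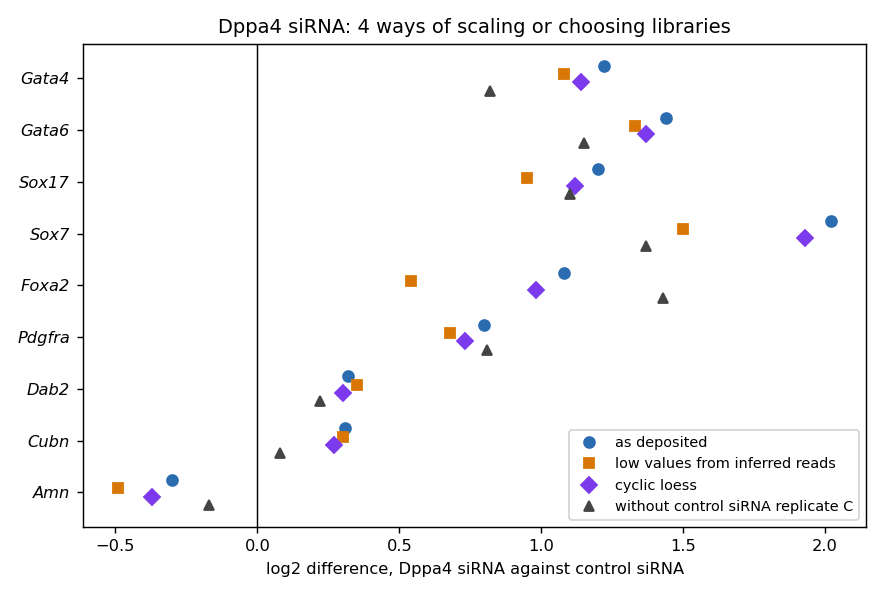
Log2 difference of the 9 genes between Dppa4 siRNA and control siRNA (horizontal axis) as deposited, with low values set from inferred reads, after cyclic loess scaling, and without control siRNA replicate C. Gata6 stays between 1.15 and 1.44 over these 4 settings, whereas Sox7 ranges from 1.37 to 2.02 and Foxa2 from 0.54 to 1.43.

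To ask whether the knockdowns differ from each other, Dppa4 siRNA libraries were compared directly with Dppa2 siRNA libraries. No member was called in this comparison, where 0.0137% of tested genes were called higher (limma). At an unadjusted p below 0.05, 2 members were higher with Dppa4 siRNA, Pdgfra by a log2 difference of 0.77 (95% interval 0.29 to 1.26, adjusted p = 0.599) and Gata6 by 0.70 (95% interval 0.15 to 1.24, adjusted p = 0.678), against 3.67% of tested genes. The 3 Dppa4 siRNA libraries were above the 3 Dppa2 siRNA libraries for 4 members, Gata4, Gata6, Sox17, and Pdgfra (10.1% of tested genes), and 8 members had a fitted difference above 0 (50.3%). The knockdowns also differed in efficiency, with Dppa2 mRNA reduced further than Dppa4 mRNA, so a difference between targets and one between knockdown efficiencies cannot be told apart. The libraries measure mRNA, and the amounts of DPPA2 and DPPA4 protein left in each group were not measured in them.

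Genes related to the members were read from the same fit. Of the visceral endoderm list, 9 of 12 genes were tested and Ttr, Afp, and Apoa4 were too low. Hnf4a, a nuclear receptor of visceral endoderm and liver, rose in both knockdowns. Its log2 values were 0.09, 0.98, and 0.71 in control, 2.02, 2.06, and 1.70 with Dppa2 siRNA, and 2.22, 2.10, and 1.98 with Dppa4 siRNA, so that every knockdown library was above every control library. The log2 difference was 1.33 with Dppa2 siRNA (SE 0.23, adjusted p = 0.0142) and 1.51 with Dppa4 siRNA (SE 0.23, adjusted p = 0.00859, limma). The transcript ID deposited with Hnf4a belongs to Hnf4aos, and whether this touches the Hnf4a values was not tested. Both calls of Hnf4a also passed the intensity difference filter. The call with Dppa2 siRNA was lost without Dppa2 siRNA replicate A (adjusted p = 0.0672) and with only the 2 groups compared in the fit (0.0778, limma). Apob, the apolipoprotein of lipid export, went the other way. It passed the filter on low values only through the control libraries, so it could be tested only as a gene that is higher there. It had 33, 54, and 12 inferred reads in control, 1, 0, and 1 with Dppa2 siRNA, and 5, 6, and 0 with Dppa4 siRNA. The ratio of Apob reads to control, corrected for depth, was 0.028 (95% interval 0.00335 to 0.104) with Dppa2 siRNA, where the fall was called (adjusted p = 0.0148, limma), and 0.128 (95% interval 0.062 to 0.240) with Dppa4 siRNA (adjusted p = 0.0509). For these ratios the reads of a group were summed, so their intervals cover counting error and not the spread between libraries. The Apob call with Dppa2 siRNA was lost without control replicate A (0.0599) or B (0.0715) or Dppa2 siRNA replicate A (0.0569), and one with Dppa4 siRNA was gained without control replicate C (0.0477). The rest of the list did not move one way. Of the 9 tested visceral endoderm genes, 5 had a fitted difference above 0 with Dppa4 siRNA and 6 with Dppa2 siRNA (list medians of 0.94 and 0.25 on the log2 scale). The summed linear level of the list was 52.31 to 90.85 in control, 41.2 to 61.0 in Dppa2 siRNA, and 55.36 to 69.11 in Dppa4 siRNA libraries, so the groups overlapped. Lrp2, at a mean log2 value of 5.63, carried most of this sum, and the next most abundant tested gene, Hnf4a, was at 1.54. The overlap of the sums therefore describes mainly Lrp2 and not the list.

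Among the paralogs of the members, 8 of 9 were tested and 3 were called in both knockdowns, 1 higher and 2 lower. Of all tested genes, 2.34% were called lower with Dppa4 siRNA and 2.27% with Dppa2 siRNA. Sox18, the remaining SOX F gene, known from endothelium, fell from log2 values of 0.03, 0.07, and 0.23 in control to -3.09, -2.25, and -2.42 with Dppa2 siRNA and -2.38, -2.13, and -1.59 with Dppa4 siRNA. The log2 differences of Sox18 were -2.70 (adjusted p = 0.00283) and -2.14 (adjusted p = 0.01, limma). Its direction was thus opposite to that fitted for Sox17 and Sox7. In the Dppa2 siRNA libraries Sox18 was below the filter on low values, which it passed through the 3 control libraries and Dppa4 siRNA replicate C. The Sox18 call with Dppa4 siRNA was lost without Dppa4 siRNA replicate A (0.0532) or B (0.0578). Gata2, a GATA factor of blood and trophoblast, fell by 0.99 with Dppa2 siRNA and by 0.83 with Dppa4 siRNA on the log2 scale (adjusted p = 0.0231 and 0.0474). The Gata2 call with Dppa4 siRNA was lost whichever of the 9 libraries was left out (adjusted p = 0.059 to 0.164), and that with Dppa2 siRNA without control replicate A or C, Dppa2 siRNA replicate A or C, or Dppa4 siRNA replicate B (0.0504 to 0.105). Pdgfrb, the partner receptor of Pdgfra, was at 0.99, 1.30, and 1.18 in control, 2.38, 2.28, and 2.05 with Dppa2 siRNA, and 2.28, 1.93, and 1.96 with Dppa4 siRNA, and rose by log2 differences of 1.08 (adjusted p = 0.00718) and 0.90 (adjusted p = 0.0173, limma). The Pdgfrb call with Dppa4 siRNA was lost without control replicate A (0.057) or any Dppa4 siRNA replicate (0.0517 to 0.0858), and with only the 2 groups compared (0.0534). Of these calls, those of Gata2 in both knockdowns and of Sox18 and Pdgfrb with Dppa4 siRNA did not pass the intensity difference filter.

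**Figure D5:**
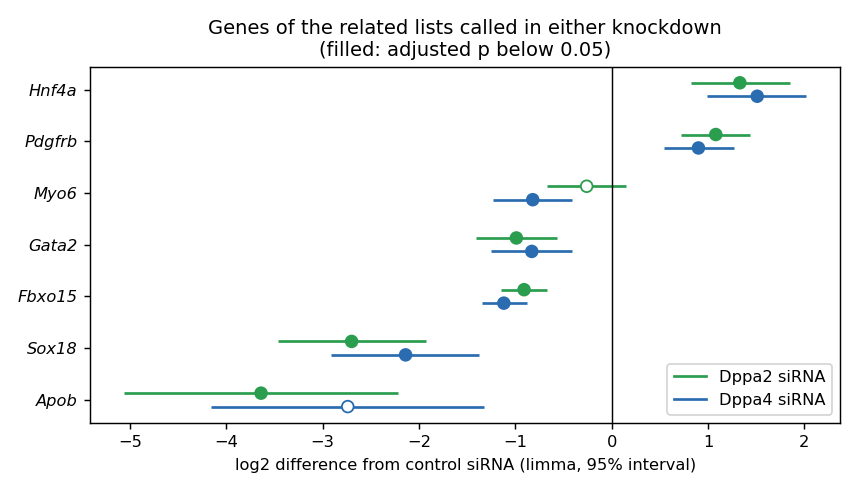
Log2 difference from control siRNA (horizontal axis) with 95% intervals from limma for the genes of the related lists that were called in either knockdown, with filled points at an adjusted p below 0.05. Hnf4a and Pdgfrb lie above 0 and Sox18, Gata2, and Fbxo15 below 0 in both knockdowns, and Apob was read at most 1 time in each Dppa2 siRNA library.

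The signals upstream of the lineage showed few calls. None of 19 genes for FGF and ERK signaling was called in either knockdown by limma, with list medians of -0.04 and -0.06 on the log2 scale. At an unadjusted p below 0.05, Egr1 was lower with Dppa2 siRNA (log2 difference of -0.38, adjusted p = 0.254, limma). Etv4 was higher with Dppa4 siRNA (0.38, adjusted p = 0.0806, limma). The most abundant gene of the list was Etv5, an ETS factor induced by FGF (mean log2 value of 8.26). Of the 6 tested PDGF ligands and related receptors, Pdgfrb alone was called and was the 1 gene with a fitted difference above 0. A further 2 genes in each knockdown were lower at an unadjusted p below 0.05 (limma). The ligand Pdgfa was at a mean log2 value of 5.30. None of 9 basement membrane genes was called by limma (1 lower in each knockdown at an unadjusted p below 0.05), with Lamc1 and Hspg2 the most abundant (mean log2 values of 7.90 and 7.85), nor any of 5 tested parietal endoderm genes (1 lower with Dppa2 siRNA and 0 with Dppa4 siRNA at an unadjusted p below 0.05), with Srgn and Snai1 at 1.74 and 1.66. Of 10 endocytic partners, Myo6, a myosin that carries endocytic vesicles, fell by 0.82 with Dppa4 siRNA (adjusted p = 0.0436, limma) and lost that call in 8 of the 9 fits that left out 1 library. The coat gene Cltc was the most abundant of these at a mean log2 value of 7.74. For genes lower at an unadjusted p below 0.05 (limma), the share over all tested genes was not computed. The counts of such genes are therefore a description and cannot be set against a background.

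Markers of other cell types were examined because bulk cultures can hold differentiating cells. No gene of the primitive streak and definitive endoderm list was called by limma (6 of 8 tested, Cer1 and Lhx1 too low), and 1 with Dppa2 siRNA and 2 with Dppa4 siRNA were lower at an unadjusted p below 0.05. Foxa1, also a paralog of Foxa2, had log2 differences of -2.07 with Dppa2 siRNA and -1.76 with Dppa4 siRNA (adjusted p = 0.111 and 0.152, limma). This list had 1 of 6 tested genes with a fitted difference above 0 with Dppa2 siRNA and 0 with Dppa4 siRNA (medians of -0.2 and -0.72). Its summed linear level was 12.42 to 15.46 in control, 12.21 to 12.91 in Dppa2 siRNA, and 9.894 to 10.7 in Dppa4 siRNA libraries, and Hhex and Eomes, its most abundant genes, were at mean log2 values of 2.61 and 1.89. No trophoblast gene was called by limma (8 of 9 tested, with Tfap2c and Krt8 at 5.12 and 4.07, and 1 lower with Dppa4 siRNA at an unadjusted p below 0.05). The summed level of this list was 67.79 to 96.72 in control, 73.88 to 97.05 in Dppa2 siRNA, and 66.23 to 74.49 in Dppa4 siRNA libraries. Of 8 fibroblast genes 3 were tested, and none was called by limma (1 lower in each knockdown at an unadjusted p below 0.05). The collagen and matrix genes Col1a2, Col3a1, Postn, Lum, and Dcn were too low. Thy1, Twist1, and the collagen gene Col1a1 were at mean log2 values of 2.38, 1.18, and 0.56. As the share of all tested genes lower at an unadjusted p below 0.05 (limma) was not computed, these counts of lower genes are a description only. The part of mixed cell types in the values of the 9 genes was not tested.

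Over the 9 libraries, the genes whose log2 values were most like those of Gata6 were Pomt1 (Pearson r = 0.997), Coro2b (0.984), and Sympk (0.979). For Sox17 they were Cdca7 (0.967), Gm15728 (0.960), and Fbxw8 (0.957). For the other 7 members the highest r was between 0.909 and 0.983. Between members, r had a median of 0.60 over 36 pairs (-0.60 to 0.92), and the highest was that of Gata6 and Sox7. These libraries share the treatments and the scaling of low values, so the correlations are a description only.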

How the data were processed

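RNA-seq of 9 ESC libraries (3 per siRNA) was analysed from the deposited table. The authors trimmed reads with Trim Galore (version 0.4.5 in the submitters' processing notes), mapped them to GRCm38 with HISAT2 2.0.5, quantitated them strand-specifically over merged transcripts in SeqMonk, and brought all libraries to 1 cumulative distribution. The deposited values are this log2 expression for 25965 genes. For their own calls the authors used DESeq2 and the intensity difference filter. No counts were in the table, so limma 3.58.1 (R 4.3.3, intensity trend) was used on the deposited log2 values, with siRNA as the only term and all 9 libraries in the fit. Genes above -2 in at least 3 libraries were tested (14601), no pseudocount was added in this fit, and p-values were adjusted by Benjamini–Hochberg over all of them. Folds are on this log2 scale. The intensity difference filter was rebuilt with windows of 1% of genes.

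Low values fall into discrete steps, and a gene was given as many reads as its step number within a library, and intervals on them cover counting error only. The 9 genes and the marker and pathway lists were chosen with earlier results of these data known. From each list, genes called in either knockdown (up to 4, by size) and otherwise the most abundant (up to 2 in all) are named, except 1 gene that is not reported here, and for each member the 3 genes most like it were found. Names and positions were matched to GENCODE (GRCm38), and promoter windows are from RefSeq (GRCm38.p6). Gene lengths are the union of annotated exons. The test was checked on simulated data in which spreads were shuffled between genes, so the check does not describe weakly expressed genes in particular. Alternatives were the filter, trend, samples, replicate letter, scaling, pseudocount, library weights, call rule, and leaving out each library. The scalings by inferred reads and by cyclic loess and the background of genes of like level were chosen after seeing the data.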

Additional observations from a re-analysis of the deposited data

How the results depend on the processing

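With Dppa4 siRNA, 2 of the 9 genes were called. The number was 1 with no filter on low values, with only the 2 groups compared in the fit, with the replicate letter as a block, and with low values from inferred reads, 0 under the high-confidence rule, and 0 to 2 when 1 library was left out. A pseudocount of 1 called 3, with Sox7 added, and without control replicate A the 2 called were Gata6 and Sox7. Library quality weights (0.176 to 5.9) were set by the gene-by-gene method, as the default method did not converge. With them, 6 members were called with Dppa4 siRNA, 2 with Dppa2 siRNA, and 4 between the knockdowns, and that fit called 2842 to 3775 genes in all. The cause was not tested. Gata6 kept its call in 17 of 20 alternatives (adjusted p 0.000247 to 0.0762, limma) and Sox17 in 10 of 20 (0.0186 to 0.143). Both counts include the fit with library quality weights. With no filter on low values, 9140 of 25965 genes were called with Dppa2 siRNA and 470 with Dppa4 siRNA.

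Directions turned with Dppa2 siRNA for Foxa2 (-0.188 with inferred reads, -0.167 to 0.77 without 1 library), Pdgfra (-0.212 with inferred reads, -0.049 with cyclic loess, -0.075 to 0.16 without 1 library), Cubn (-0.151 with library quality weights, -0.142 to 0.26 without 1 library), and Amn (0.107 with library quality weights, -0.31 to 0.195 without 1 library). Amn turned between the knockdowns (-0.50 to 0.007 without 1 library), as did Dppa2 mRNA with Dppa4 siRNA (-0.14 to 0.020 without 1 library). None of these differences was called.

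Deviations from the group means had r of -0.585 to 0.367 between same-lettered libraries and -0.658 to 0.692 between differently lettered ones. The deviations of the 3 libraries of a group sum to 0, so these correlations cannot decide whether the letters pair libraries. The replicate block left 238 calls over all genes with Dppa2 siRNA and 212 with Dppa4 siRNA, from 502 each. Of the related genes, it ended the calls of Hnf4a with Dppa2 siRNA (adjusted p = 0.0512), of Pdgfrb and Myo6 with Dppa4 siRNA (0.0727 and 0.123), and of Gata2 in both knockdowns (0.099 and 0.147, limma).

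Sox7 and Foxa2 rest on 3 to 31 reads per library, which limits both.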
